A study of Mus musculus with 32 samples.

Results

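Arginine, creatine and polyamine metabolism was followed in mouse kidney through 9 genes, out of 54532 genes in the count table: Odc1, Amd1, Sat1 and Smox of the polyamine pathway, Ass1 and Asl of arginine synthesis, Agmat of agmatine breakdown, Oat of ornithine use and Gatm of creatine synthesis. The genes were chosen by name, Odc1 and Oat because their values had been noted in these libraries, so the values of these 2 are given as a description with no test and the other 7 are tested. All 9 passed the filter on low counts over the 32 libraries. Each library was the kidney RNA of 1 C57BL/6 mouse aged 6 to 8 weeks, and the 8 groups held 4 mice each, all male or all female, labelled Day 0, 2, 3 or 5. Mice at Day 2, Day 3 and Day 5 had received a single intraperitoneal injection of cisplatin at 20 mg/kg, a platinum drug that injures the proximal tubule and causes acute kidney injury (AKI). The study described its Day 0 mice as healthy, whereas the labels give the Day 0 females a cisplatin treatment and the Day 0 males none. Whole tissue was sequenced, so fewer tubule cells and less RNA per cell cannot be told apart in any value below.

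The kidney makes much of the arginine that circulates in the body. Proximal tubule cells take up citrulline, argininosuccinate synthase (Ass1) joins it to aspartate, and argininosuccinate lyase (Asl) releases arginine. Glycine amidinotransferase (Gatm) spends arginine on the first step of creatine synthesis and releases ornithine. Ornithine stands at a fork. Ornithine decarboxylase (Odc1) turns it into putrescine, the first polyamine, and mitochondrial ornithine aminotransferase (Oat) sends it towards glutamate and proline. In mouse kidney Odc1 is a classic androgen-induced gene and Oat an oestrogen-responsive one. S-adenosylmethionine decarboxylase (Amd1) supplies the aminopropyl groups for spermidine and spermine, spermidine/spermine acetyltransferase (Sat1) and spermine oxidase (Smox) take these polyamines down again, and agmatinase (Agmat) is known for making putrescine from agmatine.

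The promoters of Odc1, Oat and Gatm are shown because the levels of the first 2 differed in opposite directions between the sexes, and those of the first and the third had the same order of mice in 4 of the 8 groups. The sequences are from RefSeq on build GRCm38.p6, read 5′ to 3′ on the strand of the gene and cut at the first base that the deposited gene coordinates give to the gene: chr12:17544623-17544793, plus strand (171 bases), chr7:132576399-132576648, minus strand (250 bases) and chr2:122611304-122611527, minus strand (224 bases). Capitals mark the GC box, CCGCCC, on either strand. The other 4 motifs searched were the TATA box, the E-box, the half-site of androgen and glucocorticoid receptors and the core of the CHOP-ATF element. Their letters are given with their counts, and no oestrogen receptor motif was searched.
Odc1: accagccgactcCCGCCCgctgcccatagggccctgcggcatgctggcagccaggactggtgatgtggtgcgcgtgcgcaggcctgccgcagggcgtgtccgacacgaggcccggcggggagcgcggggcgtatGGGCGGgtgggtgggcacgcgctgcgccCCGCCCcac
Oat: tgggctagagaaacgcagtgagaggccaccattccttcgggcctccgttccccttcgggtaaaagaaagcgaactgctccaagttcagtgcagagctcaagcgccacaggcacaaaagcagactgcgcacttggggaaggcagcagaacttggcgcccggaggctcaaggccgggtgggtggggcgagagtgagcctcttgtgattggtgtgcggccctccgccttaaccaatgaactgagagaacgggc
Gatm: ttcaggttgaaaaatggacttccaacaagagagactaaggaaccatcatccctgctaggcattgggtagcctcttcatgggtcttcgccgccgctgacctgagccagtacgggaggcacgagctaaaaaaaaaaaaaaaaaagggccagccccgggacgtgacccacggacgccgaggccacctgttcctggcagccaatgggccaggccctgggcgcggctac
The Odc1 stretch holds 3 GC boxes and has a GC content of 77.2%, against 60.0% for Oat and 57.6% for Gatm, in neither of which any of the 5 motifs was found. Over the 250 bases before the RefSeq start, 8 of the 9 genes had a promoter entry, Asl having none, and 6 of the 8 held a GC box, a motif in 32.7% of all 32851 promoters of that length. An E-box, CACGTG, was found in Ass1 and is held by 6.02% of all promoters. The half-site of androgen and glucocorticoid receptors, AGAACA, was found in Sat1 and is held by 16.1%. The letters searched for the TATA box, TATAAA, held by 12.4% of promoters, were found in none of the 8. Nor was the CHOP-ATF core, TGATGNAA, held by 3.45%. Other spellings of the TATA box were not searched, and the Amd1 entry holds TATATAAG, a near spelling. These are matches of letters and say nothing of binding.

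Total counts were between 16502107 and 35961325 per library, and several libraries stood apart. In male Day 5 mouse 1, named here by its label, there were 4153 counts of Xist, which is expressed from the inactive X chromosome, beside 387 counts of Y-linked genes, whereas the other male Day 5 libraries held 59 to 260 Xist counts. Day 0 females held 5 to 221 counts of the Y-linked genes, which were at 0 in every later female and at 1397 to 2568 in Day 0 males, and male Day 0 mouse 4 held 242 Xist counts against 0 to 50 in the other Day 0 males. Mouse 4 of each Day 0 group also stood apart in composition, with 24.0% (male) and 19.7% (female) mitochondrial counts against 4.49% to 10.7% in the other 6, thick ascending limb markers at 411 and 453 CPM against 823 to 2238 CPM, and adipocyte markers at 571 and 348 CPM against 78.7 to 155 CPM, CPM being counts scaled to a common library size. Mitochondrial genes took 78.9% to 79.8% of counts in male Day 5 mice 2 to 4 and 77.9% in female Day 5 mouse 2. Female Day 0 mouse 2 held 10866 CPM of 5 hepatocyte markers, against 54.7 to 402 CPM in the other Day 0 females, and 5 adrenal cortex markers summed to 509 to 1365 CPM in all female Day 5 libraries and reached 2046 CPM in female Day 3. The summed level of 8 proximal tubule markers, the cells in which Ass1, Asl and Gatm are chiefly made, was 9006 to 12222 CPM in Day 0 males and 7078 to 10268 CPM in Day 0 females, with all 8 detected, so the tissue matched its label. It was 6481 to 9941 CPM in males at Day 2, 7646 to 10843 CPM at Day 3 and 596 to 5183 CPM at Day 5, and in females 4073 to 10075, 3952 to 7988 and 2761 to 7878 CPM.

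Levels of different genes were compared per length, as fragments per kilobase of gene length scaled to library size (FPKM), from the deposited table. At Day 0, Ass1 was the most abundant of the 9 transcripts in both sexes, with 974 ± 164 FPKM in males and 701 ± 111 FPKM in females (SD, n = 4). In males Odc1 followed at 463 ± 99.9 FPKM and then Gatm at 221 ± 70.5 FPKM, and no mouse overlapped between neighbours in this order. In females Gatm came second at 320 ± 168 FPKM, and Oat at 153 ± 8.32 FPKM and Odc1 at 138 ± 29.5 FPKM overlapped. Sat1 and Asl had means of 49.7 to 74.1 FPKM in both sexes, and Amd1, Smox and Agmat had means of 1.69 to 7.63 FPKM. Ass1 stayed first in all 8 groups, although by Day 5 in males Ass1 and Oat overlapped, with means of 214 and 70.4 FPKM, or of 90.8 and 61.1 FPKM without male Day 5 mouse 1.

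Odc1 (GRCm38 chr12:17544794-17551505, plus strand), the first enzyme of polyamine synthesis, was 3.39-fold higher in Day 0 males than in Day 0 females, and its mean was below that of Day 0 at every later day in both sexes. Its level was 2035, 1743, 1510 and 1171 CPM in the 4 Day 0 males and 547, 350, 423 and 568 CPM in the 4 Day 0 females. At Day 2 the males had 866, 484, 657 and 448 CPM, and at Day 3 they had 348, 691, 393 and 784 CPM. By Day 5 the males had 228, 189, 162 and 220 CPM, each of them under every Day 5 female, which had 236, 256, 277 and 323 CPM, although the deposited FPKM of the 2 groups met (up to 68.2 in males and from 68.1 in females). Against Day 0 the log2 fold change in males was -1.38 (SE 0.268) at Day 2, -1.54 (SE 0.305) at Day 3 and -2.96 (SE 0.318) at Day 5, and at all 3 days no male overlapped Day 0. In females, whose Day 2 levels were 285 to 437 CPM and Day 3 levels 270 to 361 CPM, it was -0.49 (SE 0.270), -0.64 (SE 0.214) and -0.79 (SE 0.255), and only the Day 5 mice did not overlap Day 0. The male minus female difference of log2 level thus went from 1.76 (SE 0.287) at Day 0 through 0.86 (SE 0.246) and 0.83 (SE 0.264) to -0.40 (SE 0.205) at Day 5. Leaving out any 1 Day 0 mouse gave a Day 0 difference of 1.61 to 1.89. Leaving out male Day 5 mouse 1 gave -3.01 for males at Day 5 and -0.40 for the sex difference. Mitochondrial genes took 42.5% to 79.8% of counts in the Day 5 males, and the sex difference at Day 5 fitted without these genes was also -0.40. The scaling of the main fit already allowed for a few dominant genes, so this refit could hardly differ. The part of RNA quality was not tested. In male Day 5 mice 2 to 4 the summed proximal tubule markers were 596 to 1257 CPM, under the 2761 to 7878 CPM of the Day 5 females. The part of the lower tubule markers in the values of Odc1 was not tested.

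Oat (GRCm38 chr7:132557478-132576398, minus strand), the other branch of the ornithine fork, had the opposite sex difference at Day 0 and a narrower range over the days. Its level was 139, 132, 121 and 137 CPM in Day 0 males and 370, 391, 326 and 361 CPM in Day 0 females, which was 2.76-fold higher. The females had 250 to 337 CPM at Day 2, 249 to 346 CPM at Day 3 and 216 to 296 CPM at Day 5, and the males 126 to 171 CPM at Day 2 and 164 to 171 CPM at Day 3. Males and females did not overlap at Day 0, Day 2 or Day 3. At Day 5 the males had 230, 145, 144 and 125 CPM, and the 1 value within the female range came from male Day 5 mouse 1, the library with Xist counts. The sex difference, male minus female, was -1.47 (SE 0.177) on the log2 scale at Day 0, -0.87 (SE 0.168) at Day 2, -0.78 (SE 0.109) at Day 3 and -0.59 (SE 0.230) at Day 5, the last being -0.75 without male Day 5 mouse 1 and the first -1.51 to -1.43 without any 1 Day 0 mouse. Against Day 0 the log2 fold change was 0.22, 0.33 and 0.34 in males (0.14 at Day 5 without that mouse) and -0.40, -0.39 and -0.53 in females. The ratio of Odc1 to Oat per length, which compares transcripts at the 2 exits of ornithine, was 8.47 ± 1.80 in Day 0 males and 0.909 ± 0.208 in Day 0 females (SD, n = 4). In males it was 2.90 ± 1.30 at Day 2, 2.32 ± 0.925 at Day 3 and 0.897 ± 0.234 at Day 5, whereas the female means stayed between 0.755 and 0.843 over these days. The annotated span of Oat overlaps that of Fgfr2 on the same strand, which held 121 to 989 counts per library where Oat held 889 to 15479.

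**Figure D1:**
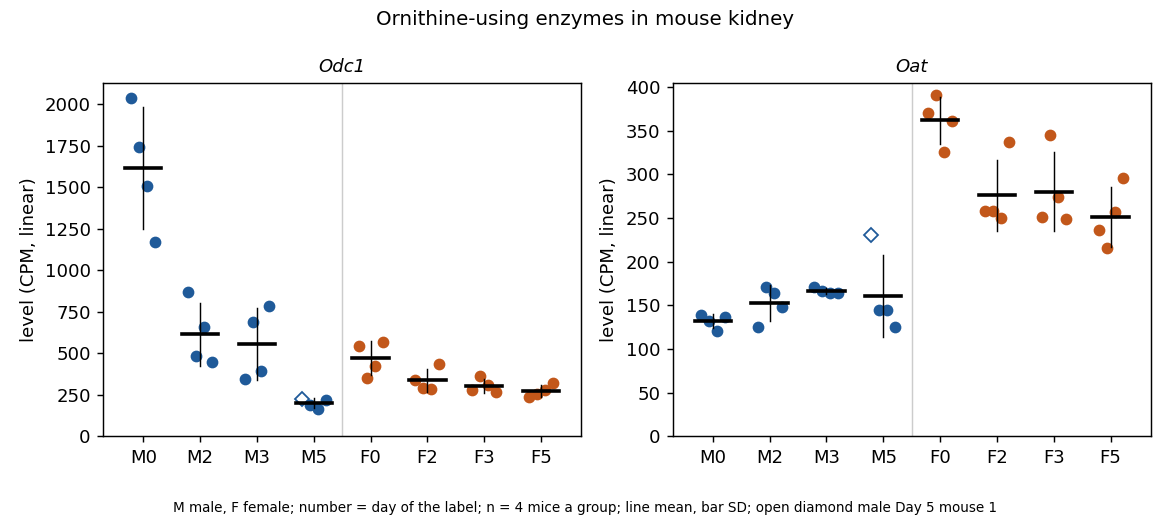
Level of Odc1 and Oat (CPM, linear axis from 0) in each of the 32 mice by group, with the mean as a line and the SD as a bar (n = 4) and male Day 5 mouse 1 as an open diamond. Day 0 males lie at 1171 to 2035 CPM for Odc1, above every other mouse, and Day 0 females at 326 to 391 CPM for Oat, where the Day 0 males lie at 121 to 139 CPM.

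Among the 7 tested genes, few passed an adjusted p of 0.05 in a comparison with Day 0, and those that did were Ass1, Asl and Gatm, each of them lower. In males none of the 7 passed at Day 2, where 3.16% of 16051 genes passed, although 2 had an unadjusted p under 0.05, as 29% of all genes did. In males at Day 3 Ass1 passed, 1 of 7 against 24.5% of all genes tested, and at Day 5 Asl and Gatm passed, 2 of 7 against 19.2%. In females none passed at Day 2 (1.93% of all genes, with 2 of the 7 and 25.3% of all genes at an unadjusted p under 0.05), Asl passed at Day 3 (5.54% of all genes), and none passed at Day 5 (0.258% of all genes, with 1 of the 7 and 15.7% of all genes at an unadjusted p under 0.05). The median log2 fold change of the 7 genes was -0.23, -0.39 and -0.81 in males and -0.24, -1.05 and -0.04 in females at Day 2, Day 3 and Day 5, where the median over all genes tested lay between 0.02 and 0.04. Leaving out 1 mouse at a time moved the female medians to between -0.92 and 0.13, -1.29 and -0.22, and -0.38 and 0.33. Without female Day 0 mouse 2, the library with 10866 CPM of hepatocyte markers, they were 0.13, -0.22 and 0.33, so the female medians of Day 2 and Day 5 turned sign with that mouse. The Day 5 median also turned positive without Day 0 mouse 4 (0.05), Day 5 mouse 1 (0.17) or Day 5 mouse 2 (0.25). The male medians stayed below 0 without any 1 mouse. In the test of whether the change from Day 0 differed between the sexes, none of the 7 passed at Day 2, Day 3 or Day 5, where 0%, 0.0114% and 0.243% of all genes passed. At an unadjusted p under 0.05 there were 0, 1 and 1 of the 7, against 4.23%, 7.11% and 15.2% of all genes.

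Counted by overlap, 1, 2 and 3 of the 7 genes had no male in common with the Day 0 range at Day 2, Day 3 and Day 5, where 24.4%, 38.3% and 27.3% of all genes were so separated. In females 0, 3 and 1 of the 7 were separated, against 15.3%, 19.3% and 8.6% of all genes, the 3 at Day 3 being Ass1, Asl and Amd1. Between the sexes 1, 0, 1 and 0 of the 7 were separated on Days 0, 2, 3 and 5, against 6.17%, 8.96%, 25.7% and 8.85%. Asking for an absolute log2 fold change over 1.5 beside the adjusted p left none of the 7 in males, in females or between the sexes at Day 3 (3.72%, 2.48% and 1.93% of all genes), and kept Asl and Gatm, both calls of males at Day 5 (7.53% of all genes).

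**Figure D2:**
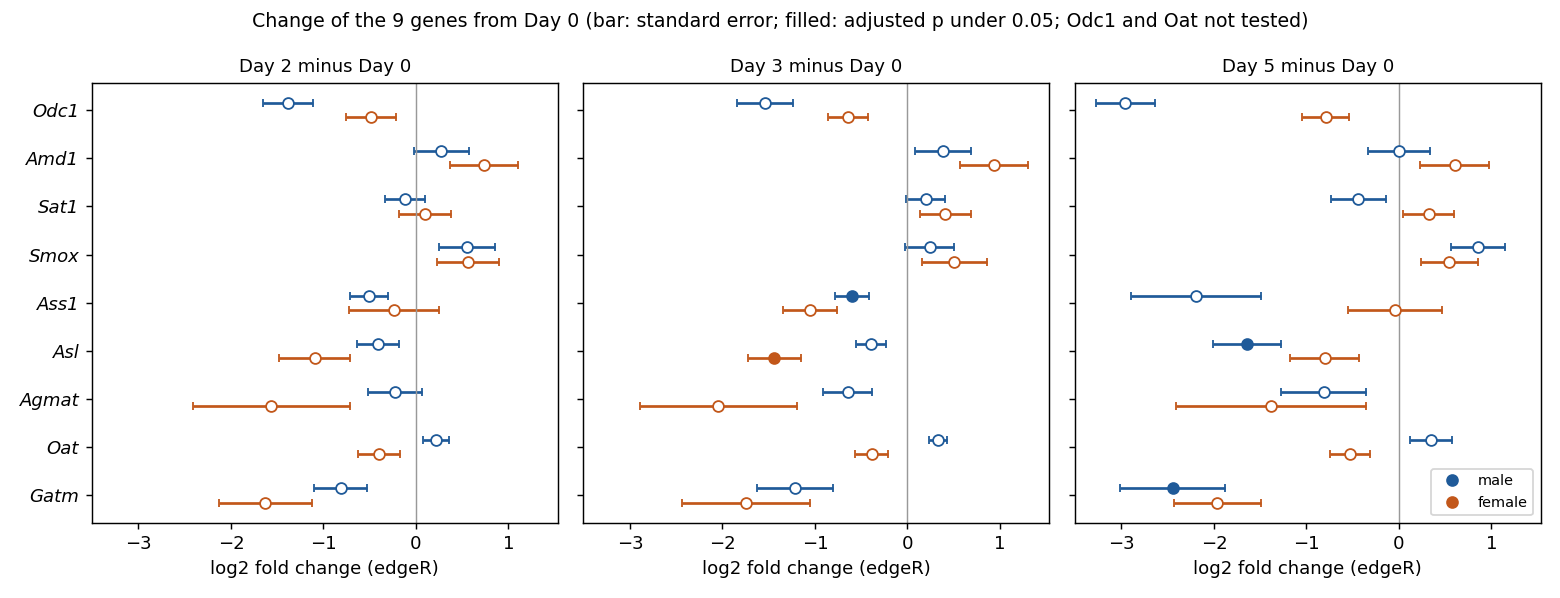
Log2 fold change from Day 0 (edgeR) of the 9 genes in males (blue) and females (orange) at Day 2, Day 3 and Day 5, with the standard error as a bar and filled points for an adjusted p under 0.05, Odc1 and Oat being untested. The filled points are Ass1 in males at Day 3 (-0.60), Asl in females at Day 3 (-1.44) and in males at Day 5 (-1.64), and Gatm in males at Day 5 (-2.45).

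Of the enzymes of arginine synthesis, Ass1 (GRCm38 chr2:31470207-31520672, plus strand) fell in males at Day 3, and Asl (GRCm38 chr5:130011258-130029247, minus strand) fell in females at Day 3 and in males at Day 5. Ass1 was at 2261, 2160, 2171 and 3017 CPM in Day 0 males and at 1369, 1752, 1435 and 1807 CPM in Day 3 males, and the groups did not overlap. It fell by 0.60 on the log2 scale (SE 0.185, adjusted p = 0.0465, edgeR quasi-likelihood test with Benjamini-Hochberg adjustment). At Day 5 the males had 1397, 303, 194 and 134 CPM, so that male Day 5 mouse 1 stood far above the other males. With all 4 mice the log2 fold change was -2.20 (SE 0.703, adjusted p = 0.0545), which missed the threshold, and without that mouse it was -3.44 (adjusted p = 0.000699). The proximal tubule markers summed to 5183 CPM in male Day 5 mouse 1 and to 1257, 596 and 660 CPM in mice 2 to 4, in which Ass1 was low. Their part in the result was not tested. The Day 3 call in males was lost without any 1 of male Day 0 mice 1 and 2 or of the 4 Day 3 males (adjusted p of 0.0671 to 0.142) and with a replicate block, no filter on low counts or 1 fit over the 8 groups (adjusted p = 0.102, 0.0846 and 0.455). The summed proximal tubule markers had a median of 10924 CPM in Day 0 males and 9744 CPM in Day 3 males, with overlap. Their part in the Day 3 fall was not tested.

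In females Ass1 varied widely between mice of the same day. It was at 1641, 1851, 1327 and 1994 CPM at Day 0, at 3071, 761, 614 and 1335 CPM at Day 2, at 529, 1220, 729 and 850 CPM at Day 3 and at 756, 555, 2614 and 2738 CPM at Day 5. Only the Day 3 females lay entirely under Day 0, with a log2 fold change of -1.05 (SE 0.290, adjusted p = 0.0577). The Day 2 female with the highest Ass1 was also the one with the highest summed proximal tubule markers, 10075 CPM against 4073 to 7490 CPM in the other Day 2 females, and the Day 3 female with the highest Ass1, mouse 2, had 7988 CPM against 3952 to 4725 CPM. Between the sexes, Ass1 was higher in males than in females at Day 3 by 0.91 on the log2 scale (SE 0.231, adjusted p = 0.0245), without overlap. This call was lost without any 1 of male mice 2, 3 and 4 or female mice 3 and 4 (adjusted p of 0.0516 to 0.0702) and with no filter or 1 fit over the 8 groups (adjusted p = 0.0942 and 0.625). In that comparison 5 of the 8 proximal tubule markers were also higher in males at an adjusted p under 0.05, and their part in the result was not tested.

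Asl was at 286, 469, 387 and 294 CPM in Day 0 females and at 93.2, 200, 105 and 137 CPM in Day 3 females, with every Day 3 mouse lower. It fell by 1.44 on the log2 scale (SE 0.285, adjusted p = 0.0465). The summed proximal tubule markers had a median of 7467 CPM in Day 0 and 4703 CPM in Day 3 females, and within Day 3 they had the order of Asl, at 3952, 7988, 4681 and 4725 CPM in mice 1 to 4. Adrenal cortex markers summed to 3.02 to 324 CPM at Day 0 and 25.2 to 2046 CPM at Day 3. The part of these cells in the fall of Asl was not tested. Day 2 females had 302, 101, 97.4 and 173 CPM and Day 5 females 127, 107, 327 and 266 CPM, and both groups overlapped Day 0. In Day 0 males Asl was at 217, 188, 289 and 285 CPM, it was at 128 to 234 CPM at Day 2 and at 178 to 194 CPM at Day 3, and at Day 5 it was at 142, 57.9, 45.6 and 56.9 CPM. The Day 5 males were all lower than Day 0, by 1.64 on the log2 scale (SE 0.370, adjusted p = 0.0184), and the highest was again male Day 5 mouse 1. The female Day 3 call was lost without any 1 of female Day 0 mice 1, 2 and 3 or Day 3 mice 1, 3 and 4 (adjusted p of 0.0713 to 0.168) and with the replicate block (adjusted p = 0.137), and the male Day 5 call without any 1 of Day 5 mice 2, 3 and 4 (adjusted p of 0.0589 to 0.0655).

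**Figure D3:**
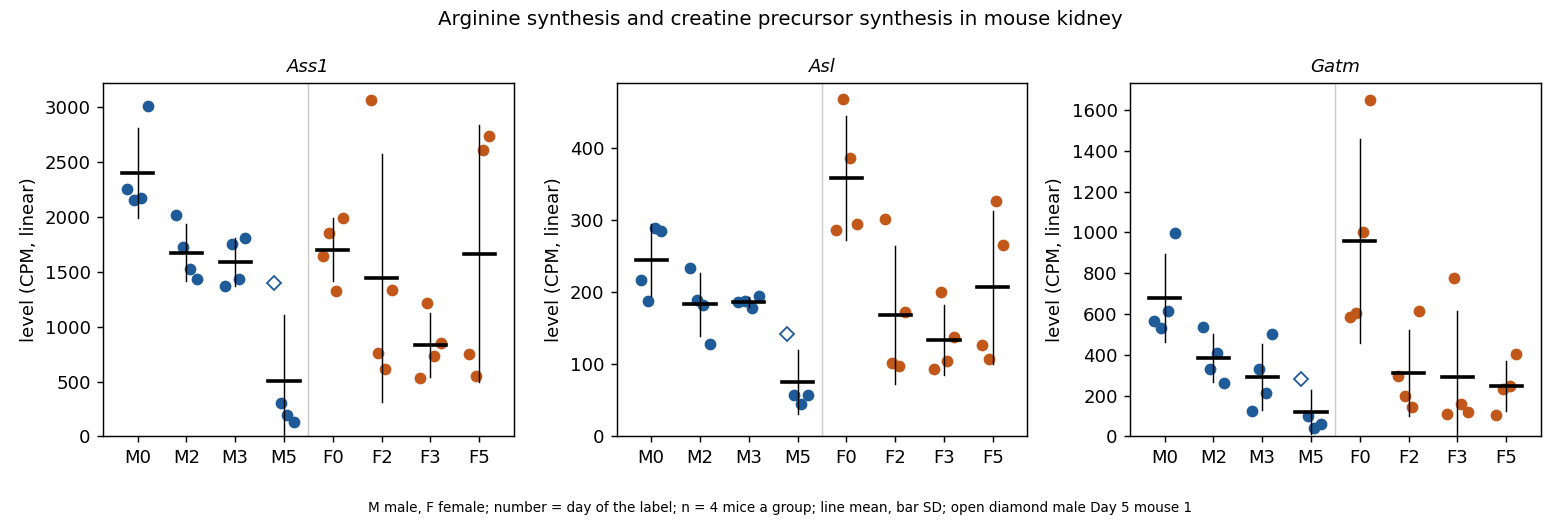
Level of Ass1, Asl and Gatm (CPM, linear axes from 0) in each mouse by group, with mean and SD (n = 4; SD bars are cut at 0) and male Day 5 mouse 1 as an open diamond. At Day 5 that mouse has 1397, 142 and 279 CPM of the 3 genes, above the other 3 males at 134 to 303, 45.6 to 57.9 and 42.5 to 97.9 CPM.

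Gatm (GRCm38 chr2:122594467-122611303, minus strand), which commits arginine to creatine, had lower means than Day 0 in all 6 later groups. It was at 566, 532, 616 and 1000 CPM in Day 0 males, at 536, 330, 408 and 262 CPM at Day 2, at 125, 330, 212 and 502 CPM at Day 3 and at 279, 97.9, 42.5 and 60.4 CPM at Day 5. Males at Day 3 and Day 5 did not overlap Day 0. The log2 fold change was -0.81 (SE 0.286, adjusted p = 0.107) at Day 2 and -1.22 (SE 0.411, adjusted p = 0.0595) at Day 3, and at Day 5 Gatm fell by 2.45 (SE 0.570, adjusted p = 0.0203), a call lost without any 1 of Day 5 mice 2, 3 and 4 (adjusted p of 0.0553 to 0.0698). Without male Day 5 mouse 1 the Day 5 mean was 66.9 CPM in place of 120 CPM. In the same Day 5 males 3 of the 8 proximal tubule markers were lower at an adjusted p under 0.05, and all 3 tested neutrophil markers and 4 of 5 adrenal cortex markers were higher. The 6 neutrophil markers listed summed to 11.1 to 226 CPM at Day 5 and 1.41 to 2.30 CPM at Day 0, with Ly6g at 0 in all Day 0 males and in mice 1 and 3 of Day 5, and the adrenal markers to 31.6 to 160 CPM and 0.730 to 17.5 CPM. Their part in the fall of Asl and Gatm was not tested.

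Day 0 females had 583, 603, 1000 and 1651 CPM of Gatm, a wide range for 1 group in which the highest was mouse 4, as in Day 0 males. Without male Day 0 mouse 4 the male Day 5 value was -2.21 (adjusted p = 0.0310). They were followed by 297, 196, 144 and 614 CPM at Day 2, by 108, 778, 158 and 117 CPM at Day 3 and by 103, 233, 245 and 406 CPM at Day 5. Only the Day 5 females did not overlap Day 0, with a log2 fold change of -1.96 (SE 0.475, adjusted p = 0.131). At Day 2 it was -1.63 (SE 0.501, adjusted p = 0.0849) and at Day 3 -1.74 (SE 0.691, adjusted p = 0.128). Without female Day 3 mouse 2, the mouse at 778 CPM, the Day 3 value became -2.92 (adjusted p = 0.0212), and without female Day 0 mouse 4 the Day 5 value became -1.56 (adjusted p = 0.0334). DESeq2 put the female values of all 3 days past the threshold (adjusted p = 0.0132, 0.0407 and 0.00179), edgeR with no filter those of Day 2 and Day 5 (adjusted p = 0.0499 and 0.0250), and 1 edgeR fit over the 8 groups those of Day 3 and Day 5 (adjusted p = 0.0447 and 0.0436).

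Odc1 and Gatm had the same order of mice in 4 of the 8 groups, although the 2 genes differed in how far they separated the sexes. This was so in males at Day 2 and Day 3 and in females at Day 2 and Day 5, and the highest mouse was the same in 7 of the 8 groups, as it was for the pair Ass1 and Gatm. The exception for Odc1 and Gatm was Day 0 males, in which the mouse with the most Gatm (1000 CPM) had the least Odc1 (1171 CPM). No other of the 36 pairs among the 9 genes shared the order in more than 3 of the 8 groups, and the median pair shared it in none. This pair was singled out after its values were seen, and the summed proximal tubule markers had the same order of mice as both genes in males at Day 2 and Day 3, and another order in females at Day 2 and Day 5. Their part in the shared order was not tested. The pair Asl and Agmat, the pair Ass1 and Asl and the pair Smox and Oat each shared the order in 3 groups.

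**Figure D4:**
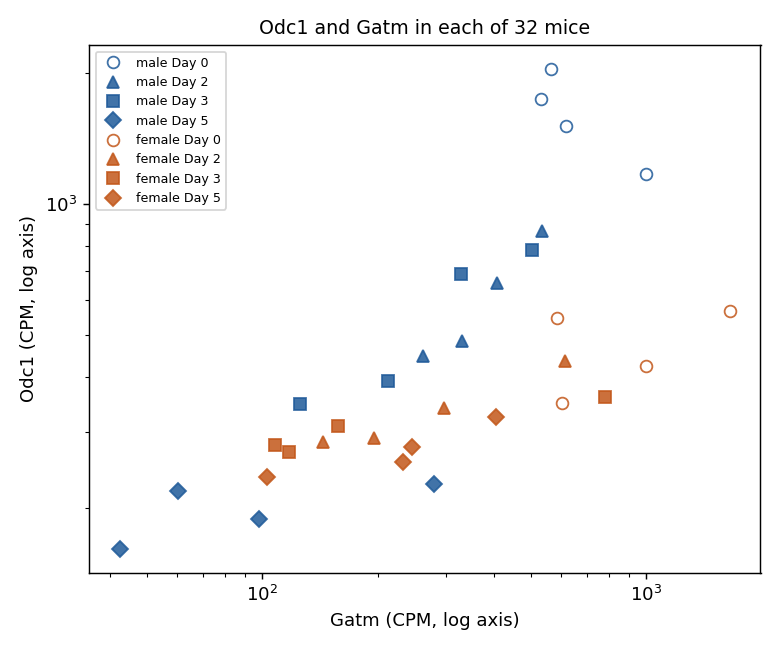
Odc1 against Gatm in each of the 32 mice (CPM, both axes logarithmic), males in blue and females in orange, with symbols for the day and open circles for Day 0. The males of Day 2 and Day 3 run from low to high in both genes, and the 4 Day 0 males lie at 1171 to 2035 CPM of Odc1 with 532 to 1000 CPM of Gatm.

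Between males and females of the same day, Ass1 and Amd1 passed at Day 3 in opposite directions, 2 of 7 tested genes against 21.3% of all genes. None of the 7 passed at Day 0, Day 2 or Day 5, where 0.449%, 1.47% and 0.276% of all genes passed. At an unadjusted p under 0.05 there were 1, 0 and 1 of the 7, against 8.04%, 15% and 20.3% of all genes. Leaving out male Day 5 mouse 1 brought Ass1 (log2 difference -2.87, adjusted p = 0.00897), Asl (-1.83, adjusted p = 0.00704) and Gatm (-1.77, adjusted p = 0.0178) past the threshold at Day 5, each lower in males, 3 of 7 where 17.0% of all genes then passed. The remaining Day 5 males had summed proximal tubule markers of 596 to 1257 CPM against 2761 to 7878 CPM in Day 5 females. Neutrophil markers were at 39.2 to 226 against 2.02 to 9.17 CPM, and adrenal cortex markers at 31.6 to 108 against 509 to 1365 CPM. The part of these cells was not tested.

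Agmat (GRCm38 chr4:141746672-141759263, plus strand) was low, at 1.92 to 3.70 CPM in 7 of the 8 Day 0 mice. The remaining one, female Day 0 mouse 2, had 32.2 CPM and was the library with 10866 CPM of hepatocyte markers, and their part in the value was not tested. Later levels were 0.645 to 2.90 CPM in males and 0.241 to 7.62 CPM in females, the lowest standing for 2 counts, and no comparison of Agmat passed. Without female Day 0 mouse 2 the mean of Day 0 females was 2.90 ± 0.862 CPM (SD, n = 3) in place of 10.2 ± 14.7 CPM.

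The remaining polyamine genes, Amd1, Sat1 and Smox, did not pass in any comparison with Day 0. Amd1 (GRCm38 chr10:40287458-40302186, minus strand) was at 34.9, 35.2, 11.8 and 29.2 CPM in Day 0 males and 33.7, 26.9, 7.79 and 26.4 CPM in Day 0 females, mouse 3 being low in both. Day 3 females had 41.4 to 49.9 CPM, all above Day 0, with a log2 fold change of 0.93 (SE 0.369, adjusted p = 0.128). Amd1 was slightly lower in Day 3 males, at 31.6 to 41.6 CPM, than in Day 3 females, by a log2 difference of -0.37 (SE 0.0943, adjusted p = 0.0221), although the groups overlapped and the call was lost without any 1 of female mice 1 and 3 or male mice 2 and 3 (adjusted p of 0.0554 to 0.0701) and in 1 fit over the 8 groups (adjusted p = 0.808). Amd2, a near-identical copy of Amd1, held 2 to 52 counts per library where Amd1 held 130 to 2220, and how reads of the pair were divided is not stated.

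Sat1 (GRCm38 chrX:155213132-155216449, minus strand), the acetyltransferase that marks polyamines for export or breakdown, was at 122 to 236 CPM in Day 0 males and 103 to 205 CPM in Day 0 females and overlapped Day 0 in all 6 comparisons. Its log2 fold changes lay between -0.44 and 0.41 (lowest adjusted p over the 6 = 0.319). Smox (GRCm38 chr2:131491496-131525922, plus strand), which oxidises spermine back to spermidine, was at 3.90 to 8.19 CPM in Day 0 males and at 8.11, 13.2, 11.8 and 13.6 CPM in Day 5 males, a log2 fold change of 0.86 (SE 0.292, adjusted p = 0.0662). Without male Day 5 mouse 1, the lowest of the 4, it was 1.01 (adjusted p = 0.0311). In females Smox went from 4.31 to 10.9 CPM at Day 0 to 10.4 to 12.8 CPM at Day 5 with overlap at every day.

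**Figure D5:**
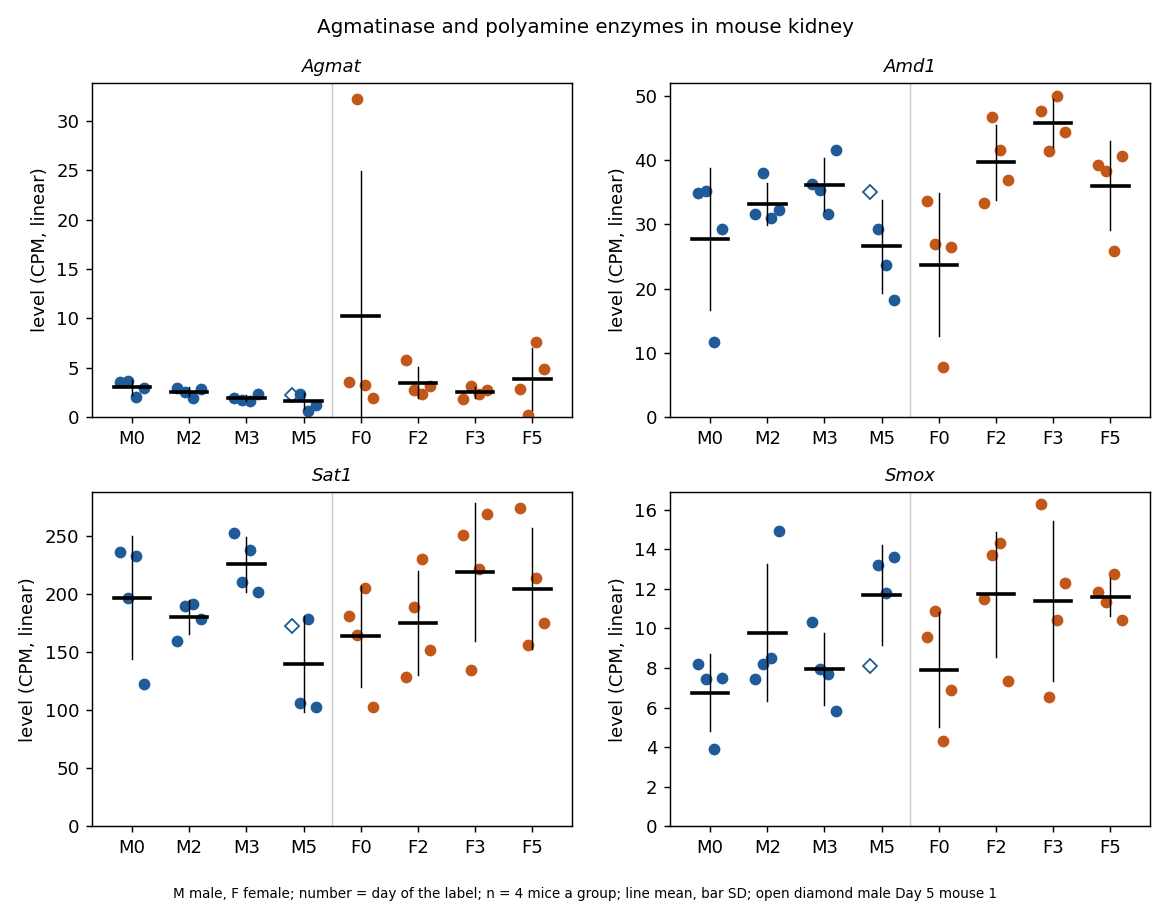
Level of Agmat, Amd1, Sat1 and Smox (CPM, linear axes from 0) in each mouse by group, with mean and SD (n = 4; SD bars are cut at 0) and male Day 5 mouse 1 as an open diamond. For Agmat the single high point is female Day 0 mouse 2 at 32.2 CPM.

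A wider list of 59 other genes of these pathways gave the surroundings of the 9. In males 0 of the 50 tested passed as higher and 1 as lower at Day 2, 1 as higher and 13 as lower at Day 3, and 5 as higher and 11 as lower at Day 5. Over all genes 1.35%, 13.1% and 10.2% passed as lower at these days, and 1.81%, 11.4% and 8.98% as higher. By role, the 13 lower genes of Day 3 were 3 of 7 of polyamine synthesis and its regulators, 3 of 4 of creatine metabolism, 3 of 7 of S-adenosylmethionine and methionine salvage, 2 of 4 of hypusination and 2 of 10 of ornithine, proline and glutamate. The 11 of Day 5 were 3 of 10 of ornithine, proline and glutamate, 2 of 4 of creatine, 2 of 7 of polyamine synthesis and 1 each of the polyamine catabolism, hypusination, salvage and arginine use genes. The 5 higher genes of Day 5 included 3 of 6 cationic amino acid transporters. In females none of 52 passed at Day 2 and none of 53 at Day 5, where 1.93% and 0.258% of all genes did, and 15 and 12 had an unadjusted p under 0.05, as 25.3% and 15.7% of all genes did. At Day 3, 1 of 54 passed as higher and 7 as lower, where 1.26% and 4.28% of all genes did. The median log2 fold change of the list was -0.15, -0.32 and -0.44 in males and -0.15, -0.32 and -0.17 in females. These counts moved with single mice, as the share of all genes did, from 1 to 24 in males at Day 3 (4.18% to 38.6% of all genes), from 3 to 27 in males at Day 5 (5.38% to 26.0%), the highest being without male Day 5 mouse 1, and from 0 to 25 in females at Day 3 (0% to 39.1%), where DESeq2 size factors also left 1 of the 8. With the replicate block none of the list passed at Day 3 in males or in females, where 0.566% and 0% of all genes then passed, so every call at Day 3 against Day 0 in the following values was lost with it.

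Of the polyamine regulators, Oaz1, the antizyme that targets Odc1 protein for degradation, fell by 1.21 at Day 3 and by 1.27 at Day 5 in males and by 1.18 at Day 3 in females on the log2 scale (adjusted p = 0.0149, 0.0249 and 0.0495). Its mean went from 670 to 290 CPM between Day 0 and Day 3 in males. The 4 erythroid markers, 3 of them haemoglobin genes, moved in the same direction at Day 3, from 418 to 2064 CPM to 0.811 to 2.13 CPM in males and from 394 to 2572 CPM to 3.02 to 74.6 CPM in females, but not at Day 5 in males, where they were at 192 to 5112 CPM. Their part in the values of Oaz1 was not tested. Sms, spermine synthase, fell by 1.59 in males at Day 5 (adjusted p = 0.0175). In the neighbouring hypusination pathway, which spends spermidine, Dohh fell by 1.29 in males and by 1.47 in females at Day 3 (adjusted p = 0.0211 and 0.0479), and Eif5a2, an isoform of the protein that carries hypusine, rose by 1.39 in females (adjusted p = 0.0489). Apip of methionine salvage fell by 1.14 and 1.32 in males and females at Day 3 (adjusted p = 0.0153 and 0.0465).

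In creatine metabolism, Gamt, which methylates the product of Gatm to creatine, fell by 1.41 in males at Day 5 (adjusted p = 0.0398) and by 1.65 in females at Day 3 (adjusted p = 0.0480). The creatine transporter Slc6a8 fell by 1.76 in males at Day 5 (adjusted p = 0.0163), from a mean of 288 to 82.0 CPM, and the brain-type creatine kinase Ckb fell by 1.36 in males at Day 3 (adjusted p = 0.0179). Around ornithine and proline, the mitochondrial ornithine carrier Slc25a15 fell by 1.93 and Aldh4a1, which makes glutamate from the product of Oat, by 1.75 in males at Day 5 (adjusted p = 0.0198 and 0.0249). The summed proximal tubule markers of these Day 5 males were 596 to 5183 CPM against 9006 to 12222 CPM at Day 0, and their part in the falls was not tested. Without male Day 5 mouse 1 the log2 fold changes were -2.25 for Slc6a8, -1.54 for Gamt, -2.56 for Slc25a15 and -2.36 for Aldh4a1 (adjusted p of 0.000648 to 0.0391). Pycrl, a pyrroline-5-carboxylate reductase, fell by 1.07 at Day 3 and 1.58 at Day 5 in males and by 1.10 at Day 3 in females (adjusted p = 0.0261, 0.0158 and 0.0490). Prodh2, a hydroxyproline dehydrogenase, was the 1 gene of the list to pass between the sexes at Day 0, where 0.449% of all genes did, at 53.1 CPM in males and 161 CPM in females on average (log2 difference -1.61, adjusted p = 0.0330). No gene of the list passed there without any 1 of mice 1, 2 and 3 of either sex.

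Of the cationic amino acid transporters, 3 of the 6 tested passed as higher in males at Day 5 (8.98% of all genes) and none as lower, with a median log2 fold change of 0.05, and none of 7 passed in females at Day 2, Day 3 or Day 5 (1.93%, 5.54% and 0.258% of all genes). In males at Day 5 Slc7a2 rose by 2.25, Slc7a6 by 1.69 and Slc7a1 by 1.38 on the log2 scale (adjusted p = 0.0130, 0.0170 and 0.0172), and Slc7a1 rose by 1.08 at Day 3 (adjusted p = 0.0253). The mean of Slc7a2 went from 6.11 to 28.0 CPM. In the same Day 5 males the neutrophil markers summed to 11.1 to 226 CPM against 1.41 to 2.30 CPM at Day 0 and the 4 collecting duct markers to 956 to 1633 CPM against 448 to 965 CPM, and their part in the rise was not tested. Of the 2 dimethylarginine hydrolases, which clear methylated arginine, Ddah1 fell by 1.79 and Ddah2 rose by 1.40 in males at Day 5 (adjusted p = 0.0412 and 0.00984). Without male Day 5 mouse 1 the log2 fold changes were -2.70 and 1.60 (adjusted p = 0.000481 and 0.000645). The summed proximal tubule markers were 596 to 5183 CPM in these males against 9006 to 12222 CPM at Day 0, and their part was not tested. Nags, the synthase of the urea cycle activator, was lower in males than females at Day 3, at means of 0.092 and 0.481 CPM, a level of a few reads. At Day 3 between the sexes 1 of 53 genes of the list passed as higher in males and 10 as lower, where 10.6% and 10.7% of all genes did. None of the list passed between the sexes at Day 2 or Day 5, where 4 of 51 and 20 of 48 had an unadjusted p under 0.05 against 15% and 20.3% of all genes.

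The genes whose levels followed each member most closely over the 32 libraries were listed by Pearson correlation of log2(CPM + 1) among 15045 protein-coding genes, as a description in which the libraries share groups and composition. Amacr (r = 0.927), Hsd17b11 (0.926) and Gatad1 (0.918) were nearest to Odc1, and Prlr (0.968), the prolactin receptor, Slc22a29 (0.941) and Atp13a4 (0.901) to Oat. Ass1 lay nearest to Slc34a1 (0.957), the proximal tubule phosphate transporter that is also among the tubule markers, with Akr1a1 (0.953) and Pbld1 (0.952). Asl was nearest to Snx8 (0.960), Renbp (0.957) and Miox (0.946), and Gatm to Cpne4 (0.935) and Miox (0.918). The remaining 4 had looser neighbours at best between 0.821 and 0.916: Acot9 for Sat1, Abcg5 for Agmat, Plp2 for Smox and BC029722 for Amd1.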

How the data were processed

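Kidney RNA of 32 mice, 1 library each, was sequenced by the authors as 150-base paired reads and aligned to GRCm38 as their methods state. The submitters' processing notes list HTSeq, DESeq2 and the builds GRCm39 and mm39 without a role; the gene coordinates of the tables are those of GRCm38. The aligner and strandedness are not given in the sources used here. Per gene, the deposited tables give raw counts and FPKM, which divides each count by gene length and an effective library size. Samples were grouped by sex and day from the labels, and p-values measure the spread between mice.

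Counts were tested with edgeR 4.0.16 and limma 3.58.1 in R 4.3.3 (TMM, filterByExpr, robust quasi-likelihood test), each comparison on the groups it compares, with Benjamini-Hochberg adjustment over all genes tested and a threshold of 0.05. Files were read with the package data.table, version 1.17.8. Log2 values and their SE come from this fit, and CPM uses TMM over the 18220 genes that passed the filter in 32 libraries. Precision is limited by 4 mice a group. Alternatives, added for the wider list after the data were seen, were DESeq2 1.42.0, its size factors, no filter, 1 fit over the 8 groups, a replicate block, mitochondrial genes left out, and each mouse left out. The procedure was tested on simulated data for males at Day 3 against Day 0: 185 of 200 genes changed 3-fold were found, with 9 false calls among 15581 genes tested, and DESeq2 found 197 with 44 false calls among 15908. The changed genes were drawn from well-counted ones, the simulated spread between mice was capped, and no simulated library stood apart. These rates therefore need not hold for the real libraries.

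Members, gene lists and the wider list were chosen with earlier results of these data known. Of the wider list, genes passing with an absolute log2 fold change over 1 are named, at most 4 per role, and for each member the 3 nearest genes or, where looser, the first. Pycr3 is listed as Pycrl. Protein sequences were not analysed here, and 1 gene of the set and 1 near gene are not reported here.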

Additional observations from a re-analysis of the deposited data

Results flagged for a closer look

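In 72 groups of 4 mice (9 genes in 8 groups), 8 had a mouse whose gap to its nearest neighbour took most of the range of its group; chance flags about 1 in 20 groups. Male Day 5 mouse 1 stood above the other males of its group for Ass1 (1397 CPM against 134 to 303) and Asl (142 CPM against 45.6 to 57.9), and it is the library labelled male that held 4153 Xist counts. Female Day 0 mouse 2 had 32.2 CPM of Agmat against 1.92 to 3.54 CPM in its group, with 10866 CPM of hepatocyte markers. Female Day 3 mouse 2 had 778 CPM of Gatm against 108 to 158 CPM, with the highest summed proximal tubule markers of its group, 7988 CPM. The other values were Ass1 at 3017 CPM in male Day 0 mouse 4 (others 2160 to 2261), Oat at 337 CPM in female Day 2 mouse 4 (others 250 to 259), Smox at 14.9 CPM in male Day 2 mouse 4 (others 7.46 to 8.52) and Amd1 at 25.9 CPM in female Day 5 mouse 3 (others 38.4 to 40.7).

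The sex difference of Odc1 in CPM changed sign over the time course. Every male was above every female at Day 0 (log2 difference 1.76) and Day 2 (0.86), and every male was below every female at Day 5 (-0.40), where the deposited FPKM overlapped (males up to 68.2, females from 68.1). The change of the difference was not tested, because Odc1 was chosen from these values. The Day 5 males had 42.5% to 79.8% mitochondrial counts, without which the difference was also -0.40. That refit could hardly differ, since the scaling already allowed for a few dominant genes. Male mice 2 to 4 had proximal tubule markers of 596 to 1257 CPM against 2761 to 7878 CPM in the females. The part of RNA quality and of these markers was not tested.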

How the results depend on the processing

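The calls among the 7 tested genes were few and near the threshold. With DESeq2 the number passing was 1, 2 and 3 in males at Day 2, Day 3 and Day 5 (16.3%, 27.7% and 22.1% of all genes), 1, 3 and 1 in females (11.6%, 17.7% and 4.13%) and 1 between the sexes at Day 5 (5.95%), in place of 0, 1, 2, 0, 1, 0 and 0. With no filter on low counts it was 0 in males at Day 3, 1 in females at Day 2, 1 in females at Day 5 and 1 between the sexes at Day 3, in place of 1, 0, 0 and 2 (8.62%, 3.41%, 0.625% and 9.89% of all genes). With 1 fit over the 8 groups it was 0 and 4 in males at Day 3 and Day 5 (19.5% and 31.1% of all genes), 1, 4 and 1 in females at Day 2, Day 3 and Day 5 (21.8%, 23.4% and 10.9%), and 0 and 2 between the sexes at Day 3 and Day 5 (0.988% and 9.69%). Asking also for an absolute log2 fold change over 1.5 left 0 in males, in females and between the sexes at Day 3. Leaving out 1 mouse at a time gave 0 to 2 in males at Day 3 (4.18% to 38.6% of all genes), 0 to 4 at Day 5 (5.38% to 26.0%), 0 to 1, 0 to 3 and 0 to 1 in females at Day 2, Day 3 and Day 5 (0.125% to 28.3%, 0% to 39.1% and 0.0483% to 12.6%), 0 to 4 and 0 to 3 between the sexes at Day 3 and Day 5 (11.1% to 34.6% and 0% to 17.0%), and 0 to 1 in the test of a differing change at Day 5 (0% to 6.74%), the 1 being Ass1 without male Day 5 mouse 1 (log2 difference -3.44, adjusted p = 0.00755). The cause of these moves was not tested. For the 7 genes DESeq2 size factors and leaving out mitochondrial genes changed no call, no passing value turned direction, and no log2 value of Odc1 or Oat under any setting turned past 0.

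The counts of the wider list moved too, under the same settings, which were applied to it after its values were seen. Of the 48 to 59 genes tested, DESeq2 passed 14 in males at Day 2 (16.3% of all genes), 9, 16 and 2 in females at Day 2, Day 3 and Day 5 (11.6%, 17.7% and 4.13%), 2, 3, 18 and 8 between the sexes on Days 0, 2, 3 and 5 (2.19%, 3.99%, 22.9% and 5.95%), and 1, 1 and 4 in the tests of a differing change (0.188%, 0.386% and 3.95%). Its size factors gave 1 in females at Day 3 (2.53%). No filter gave 0 in males at Day 2 (1.13%), 4 in females at Day 2 (3.41%), and 1 between the sexes at Day 2 and at Day 5 (1.25% and 1.29%). The fit over the 8 groups gave 7 and 29 in males at Day 2 and Day 5 (12.9% and 31.1%), 14, 18 and 13 in females (21.8%, 23.4% and 10.9%), 3, 0 and 12 between the sexes on Days 0, 3 and 5 (3.22%, 0.988% and 9.69%), and 8 in the differing change at Day 5 (7.55%). The fold threshold gave 0, 0 and 8 in males (3.72% and 7.53% at Day 3 and Day 5), 1 in females at Day 3 (2.48%) and 1 between the sexes at Day 3 (1.93%). Leaving out 1 mouse gave 0 to 13, 1 to 24 and 3 to 27 in males (0.0790% to 14.0%, 4.18% to 38.6% and 5.38% to 26.0% of all genes), 0 to 16, 0 to 25 and 0 to 8 in females (0.125% to 28.3%, 0% to 39.1% and 0.0483% to 12.6%), 0 to 1, 0 to 1, 5 to 19 and 0 to 19 between the sexes (0% to 0.495%, 0.567% to 3.35%, 11.1% to 34.6% and 0% to 17.0%), and 0 to 12 in the differing change at Day 5 (0% to 6.74%). In females at each day the highest count was that without female Day 0 mouse 4, and in males and between the sexes at Day 5 that without male Day 5 mouse 1.

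Replicate numbers were not taken to pair the mice, since in no comparison did all 4 same-numbered pairs of libraries deviate together (correlations of -0.57 to 0.64). The nearest to it was males against females at Day 0, where 3 of 4 pairs had a correlation over 0.1 and 3 of 4 libraries were closest to their own number, and there the block passed 0 of the 7 genes, as without it, and 1.31% of all genes in place of 0.449%. At Day 0 mouse 4 of both sexes stood apart in composition and mouse 3 of both was low in Amd1. Whether Day 0 mice of the same number shared a factor was not tested. With the replicate block 0 of the 7 genes passed in males at Day 3 and 0 in females at Day 3, in place of 1 each (0.566% and 0% of all genes), and 3 in males at Day 5 in place of 2 (13.0%), Ass1 being added (log2 fold change -2.87, adjusted p = 0.0430). Of the wider list 0, 0 and 10 passed in males (0.0312%, 0.566% and 13.0% of all genes), 0 in females at Day 3 (0%) and 6 between the sexes at Day 3 (17.6%). Agmat and Smox had under 20 CPM in most groups, which limits their precision.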
